A study of Mus musculus with 40 samples.

Results

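The Kupffer cell and scar macrophage genes described here are 10 genes that mark the macrophages of the liver, taken as a list of names. Of these, *Cd163*, *Clec4f*, *Vsig4*, *Timd4* and *Marco* are genes of resident macrophages, *Adgre1*, *Cd68* and *Csf1r* are expressed by macrophages in general, and *Trem2* and *Gpnmb* mark lipid-associated or scar macrophages. A row was found for 9 of the 10 genes among the 15958 genes of the table, and *Trem2* was not analysed here. All wild type C57BL/6 mice were males operated on at 8 weeks of age, with either a sham operation or small bowel resection (SBR), which removed 50 to 60% of the small bowel by the sample labels. The study's own text gives a larger extent for this operation, so the extent is uncertain. Vehicle or WUSTL0717 was then given by mouth from the end of week 3. WUSTL0717 is an amide analog of GW3965, which the study took up as a putative gut-restricted agonist of the liver X receptor (LXR). From its own tests the study concludes that the compound acts mainly in the small intestine. The dose was 30 mg/kg daily for 7 weeks, which puts the tissue at week 10. Liver RNA came from 5 mice with sham surgery and vehicle, 8 with SBR and vehicle and 5 with SBR and WUSTL0717, and duodenum and post-anastomotic ileum from 3, 4 and 4 mice in the same order. No sham mice received WUSTL0717, and the labels carry no macrophage depletion or reporter allele, so the genes were read in whole tissue.

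Kupffer cells are the resident macrophages of the liver sinusoid, where they clear bacteria, aged red cells and lipoproteins from portal blood. They are seeded before birth and renew themselves, and when they are lost, monocytes from the blood can enter the niche and take on their features over time. TIMD4 is known as a marker of long-established Kupffer cells that monocyte-derived cells gain late, whereas CLEC4F is gained sooner. In steatotic and fibrotic liver, monocyte-derived macrophages carrying TREM2 and GPNMB gather around lipid and scar. LXR alpha, the product of *Nr1h3*, is a transcription factor that Kupffer cells need to keep their identity.

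Values are log2 TPM (an abundance corrected for gene length and library total) as deposited, after batch correction with ComBat. The labels place the gut in batch 1 and the liver in batch 2, and the effect of batch and that of tissue cannot be told apart. After correction, 9 of 9 genes, and 99.4% of all genes, had liver and intestine means within 1 log2 unit of each other. Levels were therefore compared within a tissue and within a gene. Sums over a list, given below in TPM, add corrected values turned back with an offset of 1. They are not measured abundances and are set only between groups of the same tissue and list. Read totals were not at hand, so the depth behind each value is unknown, and summed TPM ran from 686816 to 819788 in the liver libraries. SBR vehicle library 2 stood apart from the other liver libraries: the mean log2 TPM of 7 hepatocyte genes was 6.36 there and 7.16 or higher in the others. Its median over all genes was 3.13, against 3.32 to 3.77 in the other SBR vehicle libraries, and calls that changed without it are given for the 9 genes and for genes named from the companion lists. Across all genes the median difference between SBR vehicle and sham vehicle liver was 0.25 on the log2 scale, and a gene that moved with the bulk of genes is not at 0 but near that value. When each library was centred on its own median, the 5953 higher and 710 lower genes of that comparison became 3245 higher and 4580 lower.

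To ask how resident macrophage genes differed after SBR, SBR vehicle liver was compared with sham vehicle liver. *Cd163* and *Timd4* fell after SBR, while the lower means of *Clec4f*, *Vsig4* and *Marco* lay within the spread between libraries. Of the 9 genes, 4 passed the test (limma, adjusted p under 0.05 over all 15901 genes tested), 2 lower and 2 higher, where 41.9% of all genes tested passed, 37.4% higher and 4.47% lower. Because these are whole-tissue libraries, fewer cells of a type and less RNA per cell cannot be told apart.

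*Cd163*, on chromosome 6 at 124304656 to 124330527 of GRCm38, encodes the scavenger receptor for haemoglobin bound to haptoglobin. The 5 sham vehicle libraries had 2.86, 2.58, 2.93, 3.22 and 2.87 log2 TPM, and the 8 SBR vehicle libraries ran from 0.64 through a median of 1.69 to 2.64. All but 1 of the SBR vehicle libraries lay below the lowest sham library, and library 6 alone reached into the sham range. The difference was -1.20 ± 0.24 (SE), or 2.31-fold lower, with an adjusted p of 0.00055 by limma and a p of 0.00389 in an exact two-sided permutation test, where 5 libraries against 8 cannot give a p below 0.000777. Without SBR vehicle library 2 it was -1.06 with an adjusted p of 0.000303.

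*Timd4*, on chromosome 11 at 46810800 to 46844332, encodes a receptor for phosphatidylserine with which macrophages take up dying cells. Its sham values were 2.25, 2.04, 2.49, 2.60 and 2.44, and the SBR vehicle libraries ran from 0.76 through 1.73 to 2.20. Again 7 of 8 lay below the lowest sham library, the exception being library 6. *Timd4* fell by 0.81 ± 0.21 (SE) on the log2 scale, or 1.75-fold (limma adjusted p = 0.0051, exact permutation p = 0.00699). With a pseudocount of 5 in place of 1, which shrinks changes of low genes, *Cd163* was at -0.64 and *Timd4* at -0.39, and both still passed.

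The other 3 resident genes overlapped more. *Clec4f*, a lectin gene that in the mouse is close to exclusive to Kupffer cells, had sham values of 3.77, 3.40, 3.75, 3.73 and 3.50 and SBR vehicle values from 2.49 through 3.41 to 4.11. The difference of -0.41 ± 0.21 did not pass (limma adjusted p = 0.118), but it passed without SBR vehicle library 6, at -0.53 with an adjusted p of 0.0212. *Vsig4*, the complement receptor that captures opsonised bacteria from the circulation, had a mean of 2.77 ± 0.19 (SD, n = 5) in sham and 2.60 ± 0.60 (SD, n = 8) after SBR. *Marco*, a scavenger receptor for bacteria and particles, had 2.59 ± 0.33 in sham and 2.21 ± 0.78 after SBR, with SBR vehicle values from 0.92 to 3.52 on either side of every sham library. For all 5 resident genes the SD was larger after SBR than in sham, and library 2 was the lowest or next to lowest of the SBR vehicle libraries while library 6 was the highest. Scaling changed calls here: with libraries centred on their medians, *Clec4f* at -0.71 (limma adjusted p = 0.00284) and *Vsig4* at -0.48 (adjusted p = 0.0308) also passed, where 28.8% of all genes passed lower and 20.4% higher.

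**Figure D1:**
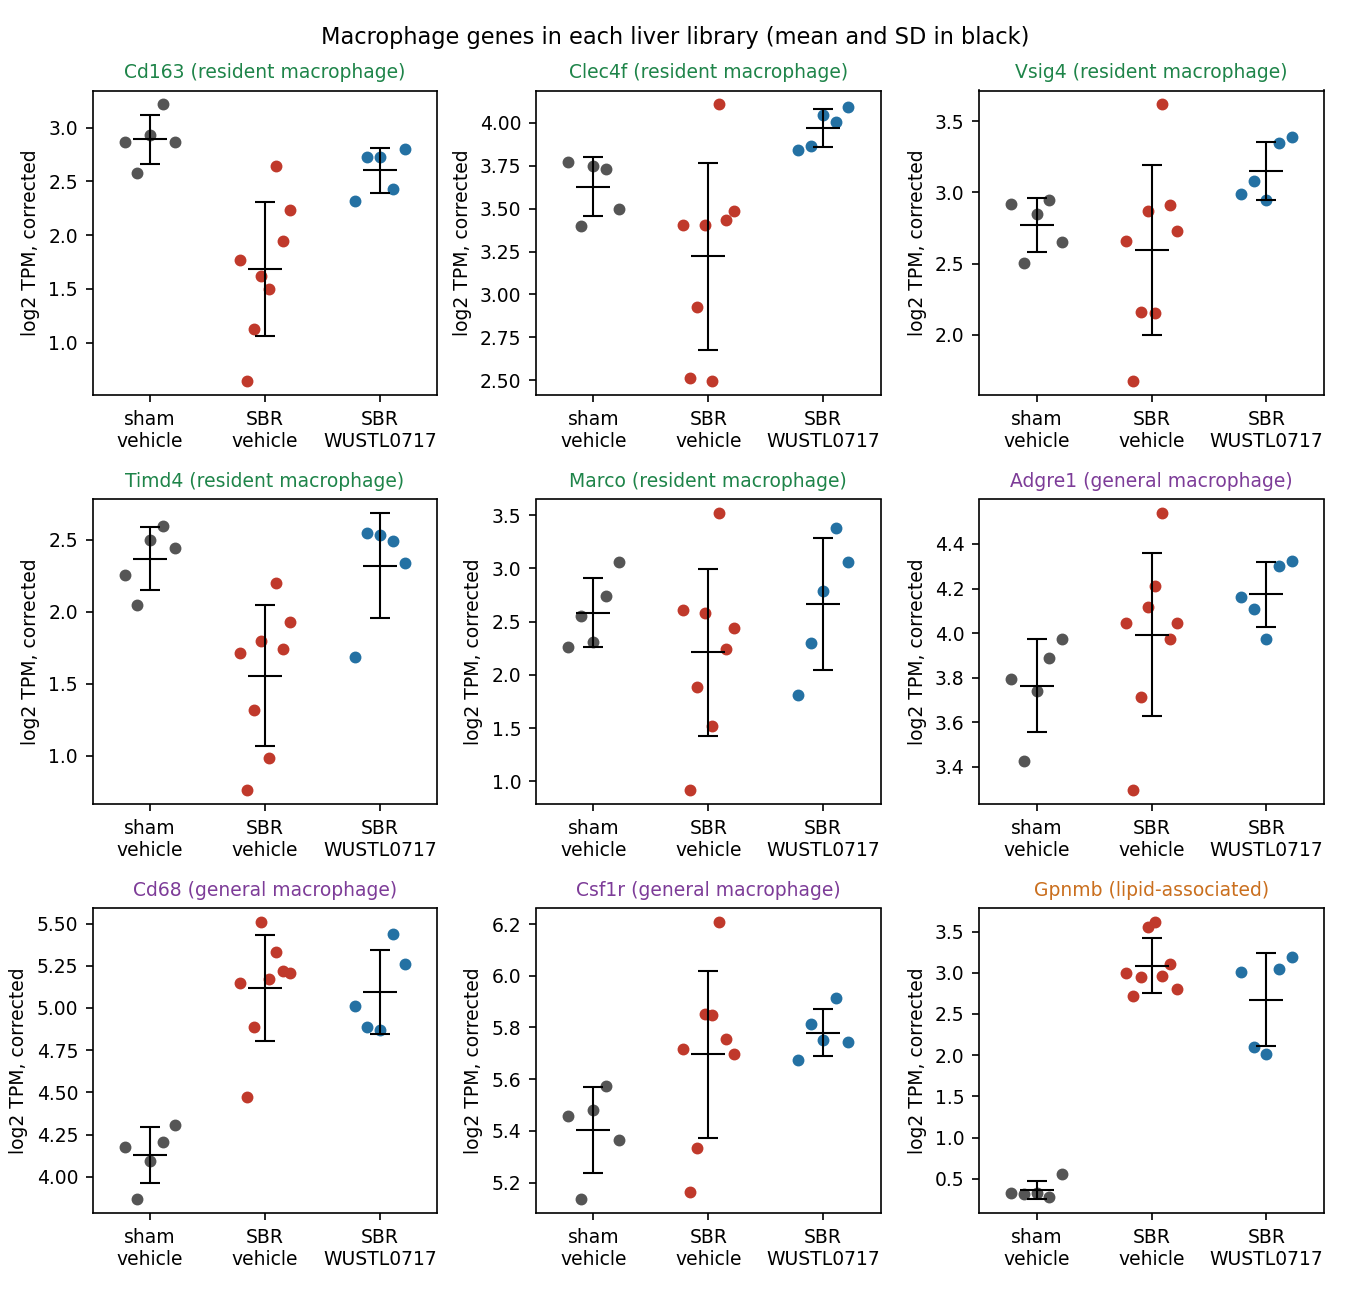
Corrected log2 TPM of the 9 genes in each liver library, 1 point per mouse, in the order sham (5 mice), SBR (8) and SBR with WUSTL0717 (5), and the mean and SD in black (each panel has its own axis, which does not start at 0). *Cd163* runs from 0.64 to 2.64 after SBR against 2.58 to 3.22 in sham, and *Gpnmb* lies at 0.56 or below in sham and at 2.01 or above in both SBR groups.

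Of the general and scar macrophage genes, *Cd68* and *Gpnmb* rose after SBR, each with all 8 SBR vehicle libraries above every sham library, a separation that 17.2% of all genes tested showed in either direction. *Gpnmb*, on chromosome 6 at 49036546 to 49070929, encodes a transmembrane glycoprotein of lysosomes in lipid-laden macrophages. Sham libraries had 0.33, 0.32, 0.33, 0.28 and 0.56, and SBR vehicle libraries ran from 2.72 through 2.97 to 3.61. Turned back with an offset of 1, that is 0.214 to 0.472 in sham and 5.59 to 11.2 after SBR. After ComBat these are corrected values and not measured TPM. The log2 difference was 2.72 ± 0.20 (SE), or 6.61-fold on the corrected scale (limma adjusted p = 1.57e-08, exact permutation p = 0.000777, the smallest this design can give). The offset was inferred from the values, and the fold of a gene this low in sham depends on it. With pseudocounts of 5 and 0.1 in place of 1 the log2 difference was 1.25 and 4.32.

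*Cd68*, on chromosome 11 at 69664213 to 69666153, encodes a lysosomal glycoprotein of phagocytes. Its sham values were 4.18, 3.87, 4.10, 4.21 and 4.31, and its SBR vehicle values ran from 4.47 through 5.19 to 5.51, a difference of 0.99 ± 0.14, or 1.98-fold (limma adjusted p = 2.4e-05). *Adgre1*, which encodes an adhesion receptor used as the classical surface marker of mouse macrophages, and *Csf1r*, the receptor for the macrophage growth factors CSF1 and IL-34, did not pass. *Adgre1* was 3.76 ± 0.21 (SD, n = 5) in sham and 3.99 ± 0.36 (SD, n = 8) after SBR, and *Csf1r* was 5.40 ± 0.17 and 5.70 ± 0.32. Their differences of 0.23 and 0.29 were close to the all-gene median of 0.25, and after centring they were -0.08 and -0.01, so no direction is given for either. Without SBR vehicle library 2 both passed, *Adgre1* at 0.33 (limma adjusted p = 0.0285) and *Csf1r* at 0.37 (adjusted p = 0.00945), and *Csf1r* did so without library 3 as well, at 0.35 (adjusted p = 0.0371). *Cd68* and *Gpnmb* stood 0.74 and 2.48 above the all-gene median.

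The 4 genes that changed with SBR are shown with the DNA around their start sites, because they moved in opposite directions in the same libraries. Each window holds 250 bases before the RefSeq start site and 30 from it, on GRCm38.p6, printed 5′ to 3′ on the gene's strand in lower case, with capitals for letters that match a searched motif on either strand. Of the 9 genes, 7 had a promoter in the RefSeq sequence table. The windows are chr6:49036268-49036547 (plus strand) for *Gpnmb*, chr11:69666141-69666420 (minus strand) for *Cd68*, chr6:124304401-124304680 (plus strand) for *Cd163* and chr11:46810549-46810828 (plus strand) for *Timd4*.
Gpnmb: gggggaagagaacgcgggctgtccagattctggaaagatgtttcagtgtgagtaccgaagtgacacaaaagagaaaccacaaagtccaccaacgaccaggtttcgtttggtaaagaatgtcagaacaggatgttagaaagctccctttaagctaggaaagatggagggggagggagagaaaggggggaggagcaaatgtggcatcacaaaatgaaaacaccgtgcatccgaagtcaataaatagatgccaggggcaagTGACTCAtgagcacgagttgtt
Cd68: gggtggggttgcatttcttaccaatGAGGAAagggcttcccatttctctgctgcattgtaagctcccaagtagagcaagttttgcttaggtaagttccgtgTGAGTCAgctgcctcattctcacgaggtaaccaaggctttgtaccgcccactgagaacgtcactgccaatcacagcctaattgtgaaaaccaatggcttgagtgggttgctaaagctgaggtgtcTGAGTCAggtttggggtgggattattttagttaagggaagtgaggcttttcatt
Cd163: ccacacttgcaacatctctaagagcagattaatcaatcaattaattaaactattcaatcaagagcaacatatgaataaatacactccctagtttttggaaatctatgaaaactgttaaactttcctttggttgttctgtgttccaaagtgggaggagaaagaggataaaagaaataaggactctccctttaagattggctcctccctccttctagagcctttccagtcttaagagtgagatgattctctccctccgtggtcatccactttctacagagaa
Timd4: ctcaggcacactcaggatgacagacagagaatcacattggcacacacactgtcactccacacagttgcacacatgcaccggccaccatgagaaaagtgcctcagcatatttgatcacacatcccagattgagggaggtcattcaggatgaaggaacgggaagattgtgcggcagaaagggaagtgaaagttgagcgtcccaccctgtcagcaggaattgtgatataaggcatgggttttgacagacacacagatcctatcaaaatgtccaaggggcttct
The motifs searched were GAGGAA (the core bound by PU.1, the lineage factor of macrophages), TGACTCA (AP-1), TCACGTG and TCATGTG (the E-box of the MiT/TFE factors of lysosomal genes) and the DR4 repeat of LXR, and no letters are shared between matches. *Gpnmb* held TGACTCA at 9 bases from the start, and *Cd68* held it at -149 and -24, as TGAGTCA on the printed strand, with GAGGAA at -225. TGACTCA was found in 4.94% and GAGGAA in 25.98% of 32851 promoter windows of the same length, TCACGTG in 3.62%, TCATGTG in 3.60% and the DR4 repeat in 0.0152%. *Cd163*, *Timd4* and *Clec4f* held none of these letters, *Vsig4* held GAGGAA at -155 and -53, and *Marco* held it at -146. A match describes the letters of the window, and binding was not measured.

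To ask whether WUSTL0717 changed these genes after SBR, SBR WUSTL0717 liver was compared with SBR vehicle liver. The means of all 5 resident genes were higher with WUSTL0717, and *Cd163* and *Clec4f* passed the test, 2 of 9 genes where 4.1% of all genes tested passed, 1.44% higher and 2.66% lower. None of the general or scar macrophage genes passed. This comparison uses the same 8 SBR vehicle libraries as the one above, so a high or low value there moves both differences, and their opposite signs are not independent of each other.

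*Cd163* with WUSTL0717 was 2.32, 2.72, 2.73, 2.43 and 2.80, and 3 of these 5 libraries lay above the highest SBR vehicle library, at 2.64. The difference was 0.91 ± 0.24 (SE), or 1.89-fold higher (limma adjusted p = 0.0380, exact permutation p = 0.0101). *Clec4f* was 3.84, 3.86, 4.05, 4.00 and 4.09, all 5 above the SBR vehicle mean of 3.22 and below that group's library 6, at 4.11. It differed by 0.75 ± 0.21, or 1.68-fold (limma adjusted p = 0.0459, exact permutation p = 0.0140). *Timd4* was 1.68, 2.55, 2.54, 2.49 and 2.34, with 4 of 5 above every SBR vehicle library and library 1 amid them. Its difference of 0.76 ± 0.21 sat on the threshold, with a limma adjusted p of 0.050023.

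These calls were fragile. *Cd163* kept its call in 5 of 13 fits that each left out 1 library and *Clec4f* in 2 of 13, with adjusted p-values up to 0.118 and 0.131, and *Timd4* gained one in 3. *Cd163* was lost without SBR vehicle library 1, 3, 4 or 5 or WUSTL0717 library 1, 2, 3 or 5, and *Clec4f* was kept only without SBR vehicle library 6 or 8. In an unmoderated two-sample test no gene passed, of these or of all 15901, and the adjusted p of *Cd163* was 0.182. The differences themselves stayed between 0.77 and 1.05 for *Cd163* and between 0.64 and 0.87 for *Clec4f* as libraries were left out. Without SBR vehicle library 2, *Cd163* was 0.77 (limma adjusted p = 0.0318) and *Clec4f* 0.65 (adjusted p = 0.0514). With libraries centred, *Cd163*, *Clec4f*, *Vsig4* and *Timd4* all passed, where 11.5% of all genes passed in the higher direction.

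*Vsig4* was 3.15 ± 0.21 (SD, n = 5) with WUSTL0717, 0.56 above SBR vehicle (limma adjusted p = 0.201), and *Marco* was 2.67 ± 0.62, 0.46 above it (adjusted p = 0.553). *Gpnmb* was 3.01, 2.10, 2.01, 3.04 and 3.19 with WUSTL0717, so 2 of 5 libraries lay below the lowest SBR vehicle library and 3 within its range. The difference of -0.42 ± 0.20 did not pass (limma adjusted p = 0.293, exact permutation p = 0.119). *Cd68* with WUSTL0717 was 5.01, 4.89, 4.87, 5.44 and 5.26, all within the SBR vehicle range, and differed by -0.02 ± 0.14. *Adgre1* and *Csf1r* differed by 0.18 and 0.08, with adjusted p-values of 0.628 and 0.838.

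**Figure D2:**
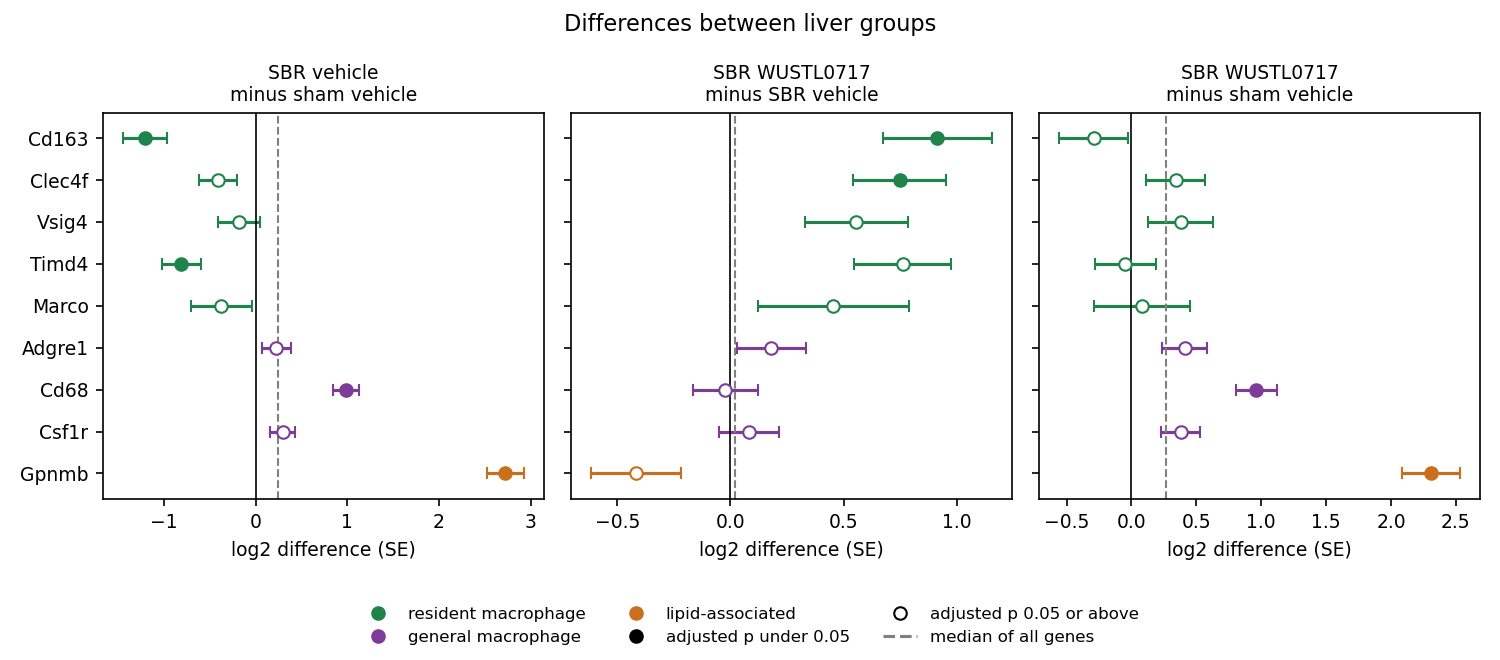
Log2 differences between liver groups for the 9 genes, with bars for the SE, filled points where the limma adjusted p was under 0.05 and a dashed line at the median of all genes. *Cd163* and *Timd4* lie left of 0 and *Cd68* and *Gpnmb* right of it after SBR (left), *Cd163* and *Clec4f* are filled with WUSTL0717 against SBR vehicle (middle), and *Cd68* and *Gpnmb* are filled with WUSTL0717 against sham (right).

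Set against sham vehicle, SBR WUSTL0717 liver still had raised *Gpnmb* and *Cd68*. These 2 of 9 genes passed, where 28.8% of all genes tested did. *Gpnmb* was 2.31 ± 0.22 (SE) higher, or 4.95-fold (limma adjusted p = 2.43e-06), and *Cd68* 0.96 ± 0.16 higher, or 1.95-fold (adjusted p = 0.00047). The groups did not overlap for 5 genes, *Gpnmb*, *Cd68*, *Csf1r*, *Clec4f* and *Vsig4*, each higher with WUSTL0717, beside 28.1% of all genes in either direction, and the median of all genes was 0.27 higher in this comparison. With libraries centred, the differences of *Csf1r*, *Clec4f* and *Vsig4* were 0.08, 0.04 and 0.08, while *Gpnmb* at 2.01 and *Cd68* at 0.66 passed. For *Clec4f* the limma difference was 0.34 with an adjusted p of 0.245 although every WUSTL0717 library lay above every sham library (exact permutation p = 0.00794, the smallest that 5 against 5 can give). *Cd163* stood at -0.29 and *Timd4* at -0.05 against sham, with adjusted p-values of 0.396 and 0.884, and at -0.59 and -0.35 with libraries centred (adjusted p = 0.0702 and 0.249), which does not show that they were alike.

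Over all liver libraries, the resident genes varied together around their group means. The SD of all 5 was largest in SBR vehicle. Deviations of each library from its group mean were correlated over the 18 liver libraries for the 36 pairs of genes, with Benjamini-Hochberg adjustment over the pairs. For the 10 pairs of resident genes, Pearson's r ran from 0.74 to 0.94 with a median of 0.85, and all 10 had an adjusted permutation p under 0.05 for r and for Spearman's rho. Over the 8 SBR vehicle libraries alone r was 0.88 to 0.98 for these pairs. It was not computed within sham or SBR WUSTL0717 alone, so the pooled r may rest mostly on SBR vehicle. The highest was *Clec4f* with *Vsig4*, at an r of 0.94 (permutation p = 1e-05, the smallest that 100000 permutations can give) and a rho of 0.86, and r was 0.94 again without the 2 libraries farthest from the median of *Clec4f*. The lowest was *Cd163* with *Marco*, whose r of 0.74 became 0.37 without 2 libraries and so rests largely on them. Resident genes had an r of 0.58 to 0.85 with the general genes, with a median of 0.70, and all 15 pairs passed for r and 10 for rho. Without the 2 farthest libraries of each pair the median r was 0.67 for resident pairs, from 0.37 to 0.94, and 0.52 between resident and general genes, from 0.22 to 0.87, so both medians rest in part on those libraries. After centring, r was 0.65 to 0.89 among resident genes and 0.25 to 0.77 between resident and general genes, and whether the 2 kinds of pair differ was not tested. *Gpnmb* had an r between -0.21 and 0.17 with the 5 resident genes, and none of these 5 pairs passed. After centring those r values were between -0.68 and -0.19, so their sign depends on the scaling. *Gpnmb* and *Cd68* had an r of 0.62, the one pair of *Gpnmb* that passed for r, and 0.37 after centring. By rho, *Gpnmb* passed with *Cd68* at 0.57 (adjusted permutation p = 0.025) and with *Adgre1* at 0.60 (adjusted permutation p = 0.0216). In each library, *Gpnmb* minus the mean of the 5 resident genes was -2.77 to -2.30 in sham, -0.26 to 1.88 in SBR vehicle and -0.995 to 0.48 in SBR WUSTL0717, so the 2 SBR groups overlapped and neither reached the sham range.

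**Figure D3:**
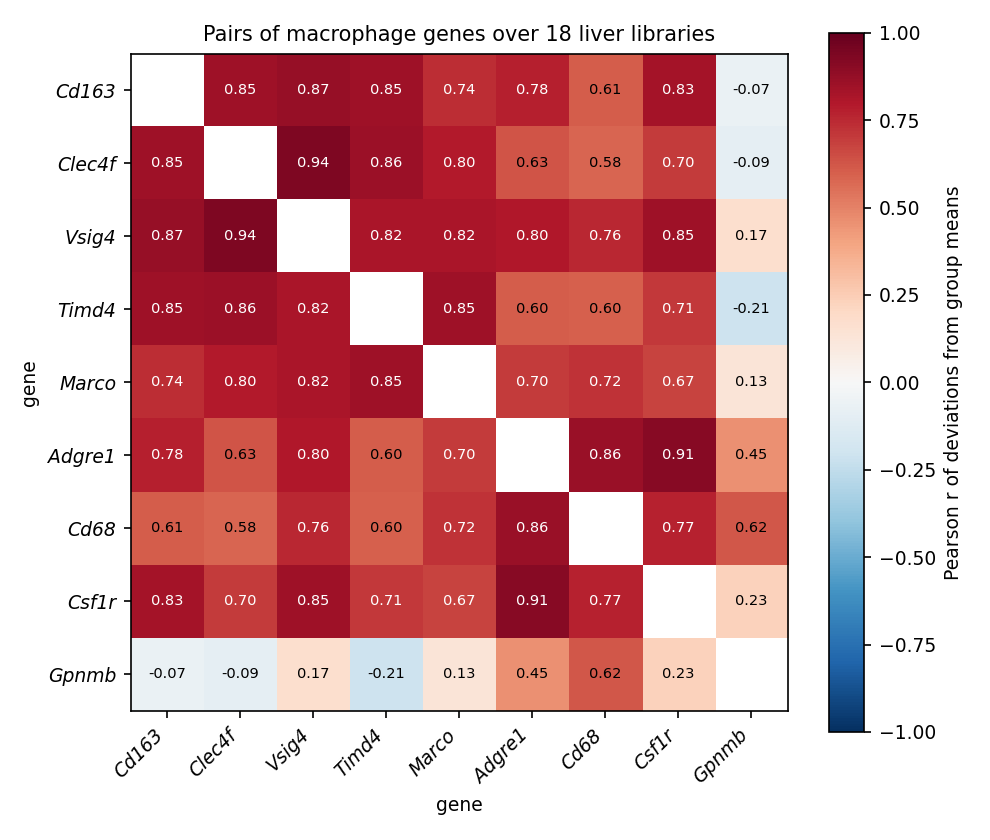
Pearson's r of deviations from group means for each pair of the 9 genes over 18 liver libraries, as colour from -1 to 1 with r printed in each cell. The block of 5 resident genes runs from 0.74 to 0.94, and the cells of *Gpnmb* with those genes from -0.21 to 0.17.

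Of 15889 genes outside the list, *Cfp*, *Cd5l* and *Fcna* had deviations most like the mean of the resident genes, with an r of 0.95, 0.93 and 0.91 over the 18 libraries. *Fcna*, which encodes a ficolin, fell by 0.97 after SBR (limma adjusted p = 0.0012) and was 0.94 higher with WUSTL0717 (adjusted p = 0.0193). *Cfp*, the gene of properdin, fell by 0.56 (adjusted p = 0.0327) and stood 0.70 higher with WUSTL0717 (adjusted p = 0.0599), and *Cd5l*, which encodes a secreted protein of macrophages, stood at -0.29 and 0.56 without passing in either, but passed in both with libraries centred, at -0.59 and 0.57. Most like *Gpnmb* were *Cyp4f18*, *Eid1* and *Nr4a2*, with an r of 0.89, 0.89 and 0.87. These r values are descriptions, and the genes were picked for them.

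The companion genes below are read beside the all-gene median of 0.25 after SBR, where 37.4% of all genes rose and 4.47% fell, or 20.4% and 28.8% with libraries centred. With WUSTL0717 against SBR vehicle 1.44% of all genes rose and 2.66% fell, or 11.5% and 8.19% with libraries centred. Of 14 other Kupffer cell genes with a value, 5 rose after SBR, a share near that of all genes, and 4 fell, and their median difference was 0.01. With libraries centred 4 rose and 8 fell, with a median of -0.30. *Lyz2*, the lysozyme of myeloid cells, rose by 1.13 (limma adjusted p = 1.2e-05), and the complement genes *C1qb* and *C1qc* rose by 0.74 and 0.60. *C6*, a terminal complement component, fell by 0.92 (adjusted p = 0.00081). With WUSTL0717 against SBR vehicle *Fcna* alone of the 14 passed, while 13 of 14 had a higher mean, and with libraries centred 6 passed higher and 1 lower. Among 9 transcription factors of Kupffer cells and macrophages, 6 rose after SBR. *Irf8*, *Id1* and *Spi1*, the last encoding PU.1, rose by 1.08, 2.37 and 0.78 (limma adjusted p = 3.5e-07, 4.2e-07 and 2.4e-05). With WUSTL0717 *Irf8* stood at -0.33 (adjusted p = 0.0913), and it passed without SBR vehicle library 2, at -0.37 (adjusted p = 0.0367), and with libraries centred, at -0.33 (adjusted p = 0.00077). *Nr1h3* stood at 6.37 ± 0.16 (SD, n = 5) in sham, 6.32 ± 0.21 (SD, n = 8) after SBR and 6.55 ± 0.08 (SD, n = 5) with WUSTL0717, and neither difference passed (limma adjusted p = 0.7102 and 0.240). Both passed with libraries centred, at -0.36 and 0.24, so the call for *Nr1h3* depends on the scaling.

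Of 16 scar macrophage genes other than *Gpnmb*, 12 rose after SBR and none fell, with a median difference of 1.13, and 11 rose and 1 fell with libraries centred. *Spp1*, which encodes osteopontin, rose by 3.31 (limma adjusted p = 1.5e-08), the tetraspanin gene *Cd63* by 2.58, *Itgax*, which encodes CD11c, by 2.02, and *Lpl*, lipoprotein lipase, by 1.80. With WUSTL0717, *Spp1* fell by 1.06 (limma adjusted p = 0.0183), *Cd63* by 0.92 (adjusted p = 0.0247) and *Itgax* by 0.72 (adjusted p = 0.0196), and the other 13 did not pass. Without SBR vehicle library 2, 5 of the 16 passed, *Lpl* among them at -0.59 (adjusted p = 0.00698), and with libraries centred 2 passed higher and 6 lower. *Spp1* is also a gene of bile duct cells, and markers of those cells moved with it. *Spp1* is 1 of the 5 genes in the cholangiocyte list. The other 4, *Sox9*, *Krt19*, *Krt7* and *Epcam*, all rose after SBR, with a summed level of 57.7 to 154 TPM in sham, 312 to 637 in SBR vehicle and 172 to 403 in SBR WUSTL0717 libraries, and with WUSTL0717 *Sox9*, *Krt7* and *Epcam* fell. Their part in the change of *Spp1* was not tested.

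Signals to CSF1R and TREM2 were read through 9 genes, of which 8 rose after SBR, or 7 with libraries centred, and with WUSTL0717 0 passed by limma, with 2 at an unadjusted p under 0.05 and 2 passing lower with libraries centred. *Csf1*, the ligand that keeps macrophages alive, rose by 1.14 (limma adjusted p = 3.5e-06), *Il34*, the other ligand, by 0.64 (adjusted p = 0.00035), and *Tyrobp*, the adaptor through which TREM2 signals, by 0.94 (adjusted p = 3.2e-05). With WUSTL0717 they stood at -0.42, -0.08 and -0.14 against SBR vehicle, and *Csf1* passed without SBR vehicle library 2, at -0.49 (adjusted p = 0.0309). Phagocyte receptors rose in 8 of 10, among them *Axl* by 1.08 and *Cd14* by 1.75, where 6 rose and 1 fell with libraries centred, and with WUSTL0717 0 of 10 passed by limma, with 2 at an unadjusted p under 0.05. With libraries centred 1 passed higher and 2 lower, *Cd14* at -0.76 (adjusted p = 0.0166) and *Axl* at -0.19 (adjusted p = 0.018). *Cd14* also passed without SBR vehicle library 2, at -0.90 (adjusted p = 0.0307).

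Monocyte genes had 4 of 12 with a value, and all 4 rose after SBR. *Cx3cr1*, the fractalkine receptor, rose by 2.13 (limma adjusted p = 1.5e-08), *Ccl2*, the chemokine that calls monocytes from marrow, by 1.72, *Plac8* by 1.28 and *Ly6c2* by 0.78. With WUSTL0717, *Cx3cr1* fell by 0.91 (adjusted p = 0.00635) with no overlap between the groups, a separation that 1.54% of all genes showed, and the other 3 were lower without passing. *Plac8* passed with libraries centred, at -0.45 (adjusted p = 0.00569). The summed level of the 4 genes was 47.3 to 76.8 TPM in sham, 108 to 198 in SBR vehicle and 82.9 to 174 in SBR WUSTL0717 libraries. Of 6 genes of all leukocytes 5 rose after SBR, with sums of 56.8 to 76.2, 94.8 to 161 and 91.2 to 148 TPM, and with WUSTL0717 1 of the 6 fell, *Coro1a* by 0.54 (limma adjusted p = 0.0477).

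**Figure D4:**
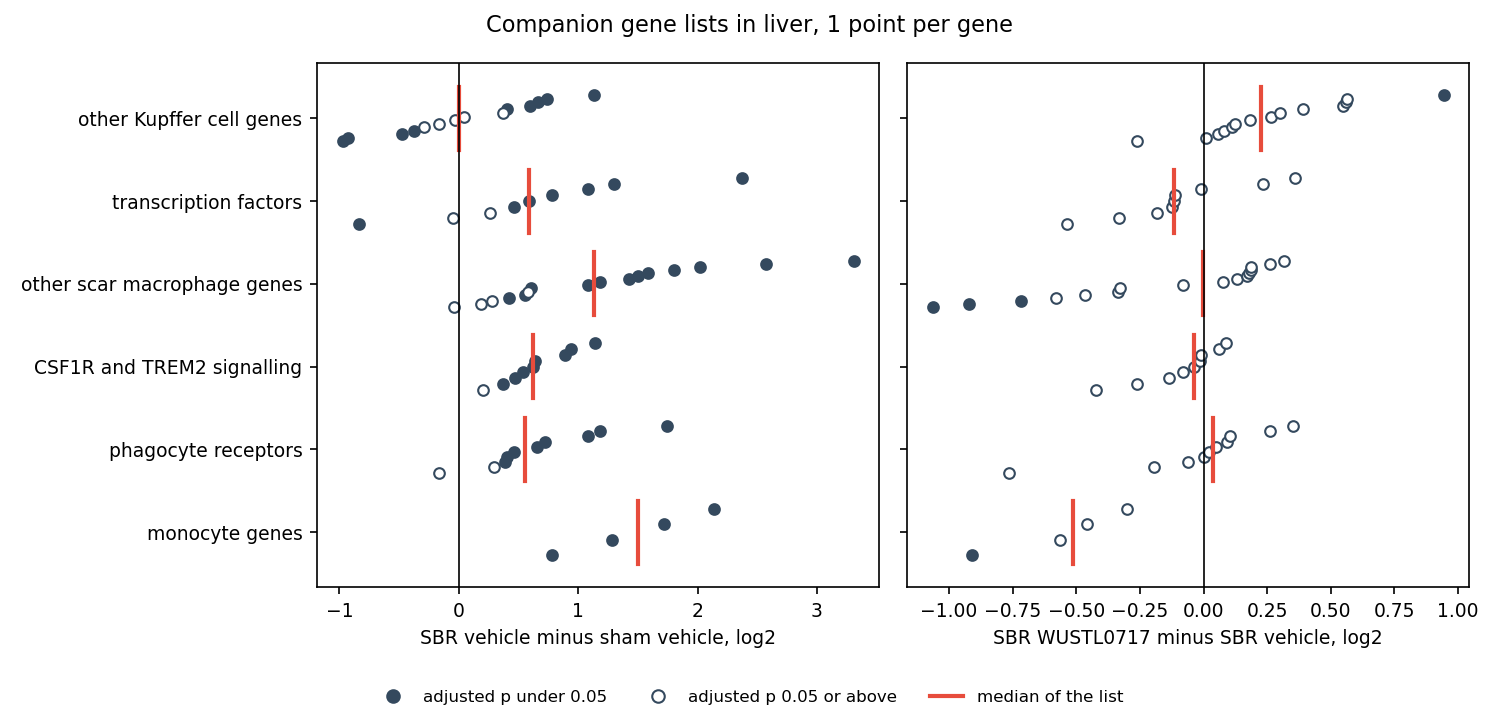
Log2 differences of each gene in 6 companion lists in liver, SBR vehicle minus sham vehicle (left) and SBR WUSTL0717 minus SBR vehicle (right), 1 point per gene, filled where the limma adjusted p was under 0.05, with the median of each list in red. The median of the other scar macrophage genes is 1.13 on the left and near 0 on the right, and that of the other Kupffer cell genes is 0.01 and 0.22.

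Genes of the other liver cells moved too. All 7 stellate cell and fibroblast genes rose after SBR, with sums of 90.5 to 134 TPM in sham and 331 to 578 in SBR vehicle, and 3 fell with WUSTL0717, where the sums were 202 to 376. *Col1a1*, the main collagen of scar, rose by 3.36 and fell by 1.47 (limma adjusted p = 0.00401). Of 7 hepatocyte genes 1 fell after SBR and none rose, with sums of 1602 to 2159, 783 to 1813 and 1554 to 2340 TPM, and 6 of 7 fell with libraries centred. Of 7 genes of sinusoidal endothelium, the lining that Kupffer cells attach to, 1 rose, while 1 rose and 4 fell with libraries centred. T and NK cell genes rose in 1 of 5, neutrophil genes in 2 of 2, the dendritic cell gene in 1 of 1 and B cell genes in 0 of 2, where 37.4% of all genes rose, and lists this short say little about those cells. Of 5 red blood cell genes 1, *Alas2*, fell after SBR and rose with WUSTL0717. Of 5 genes of intestinal epithelium 2, *Vil1* and *Epcam*, rose after SBR and fell with WUSTL0717, and *Epcam* is also in the cholangiocyte list. No listed gene was at 0 in any liver library. After ComBat an undetected gene need not be at 0, so this does not show that each was detected. In corrected TPM the resident genes summed to 27.1 to 38.01 in sham, 9.04 to 46.8 in SBR vehicle and 28.997 to 42.9 in SBR WUSTL0717 libraries. The part of these other cells in that spread was not tested.

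In the intestine, none of the 9 genes passed in either region. With 3 or 4 mice a group the fits there found fewer of the genes shifted in simulated data than the liver fit did, so a count of 0 does not show that the genes were alike between groups. In the ileum, 0 of 9 passed after SBR, where 0.349% of all genes did, and 0 of 9 with WUSTL0717, where 0.0697% did (limma, with 1 of 9 at an unadjusted p under 0.05 in each). In the duodenum, 0 of 8 tested genes passed after SBR, where 0.0% of all genes did, and 0 of 8 with WUSTL0717, where 0.258% did (limma, again with 1 at an unadjusted p under 0.05 in each). *Cd163* was not tested there because its mean was under 1. *Clec4f*, *Vsig4* and *Marco* repeated 1 same lowest value in 11, 18 and 12 of the 22 intestinal libraries, at 2.59, 1.99 and 1.61, and no value repeated in liver, so these 3 genes carry little information on the gut. The groups overlapped for all 9 genes in ileum after SBR, where 9.5% of all genes did not overlap, and in duodenum with WUSTL0717, where 3.15% did not.

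*Cd163* in ileum was 2.36 ± 0.11 (SD, n = 3) in sham, 3.31 ± 0.92 (SD, n = 4) after SBR and 2.72 ± 0.12 (SD, n = 4) with WUSTL0717. *Timd4* in ileum was 1.02 ± 0.15, 1.27 ± 1.07 and 2.10 ± 0.80, and *Cd68* was 5.19 ± 0.28, 4.75 ± 0.30 and 4.86 ± 0.73. *Gpnmb* in ileum was 2.24 ± 0.88, 1.37 ± 0.43 and 3.23 ± 1.85, the last with 1 library at 5.97 and the others at 2.57 or below. *Csf1r* was the only one of the 9 whose ileum groups did not overlap between WUSTL0717 and SBR vehicle, at 3.87 to 5.33 against 5.34 to 5.71 (difference -0.60, limma adjusted p = 0.810, exact permutation p = 0.0286), where 3.83% of all genes did not overlap. In duodenum, *Adgre1* was 3.73 ± 0.62 (SD, n = 3) in sham and 2.21 ± 1.15 (SD, n = 4) after SBR, again without overlap, as for 9.65% of all genes there (difference -1.52, limma adjusted p = 0.281, exact permutation p = 0.143). The all-gene median there was -0.36, and with libraries centred the *Adgre1* difference was -1.11. *Gpnmb* in duodenum was 1.99 ± 0.65, 1.53 ± 0.64 and 0.64 ± 0.35 in the 3 groups.

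Whether the change after SBR differed between liver and gut was tested as a difference of differences, first with 1 spread over all tissues and then with a spread for each tissue. Libraries of different tissues were fitted as independent, and any mice shared between tissues were not modelled. Against ileum, 2 of 9 genes passed both ways, where 5.35% and 4.45% of all genes did. *Gpnmb* was 3.59 log2 units higher in liver than in ileum for this change (limma adjusted p = 0.00057, and 0.0246 with a spread for each tissue). *Cd163*, which stood at -1.20 in liver and 0.95 in ileum, differed by -2.16 (adjusted p = 0.00188 and 0.0102). Against duodenum, *Gpnmb* differed by 3.19 both ways (adjusted p = 0.00062 and 0.00041), where 29% and 11% of all genes passed. Over all genes the median of this difference was 0.21 against ileum and 0.64 against duodenum, and the values here are read beside it. *Cd68* at 2.09 and *Adgre1* at 1.74 did not pass with a spread for each tissue (adjusted p = 0.0803 and 0.0789). They passed with 1 spread (adjusted p = 0.00717 and 0.0142), but in simulated data for liver and ileum that fit made more false calls than the fit with a spread for each tissue. For WUSTL0717 against SBR vehicle, no gene of the 9 passed against ileum, where 0.223% and 0.134% of all genes did, or against duodenum, where 0.924% and 0.352% did, so an effect of WUSTL0717 particular to liver was not shown. ComBat may have scaled the 2 batches by different factors, which would change these differences.

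**Figure D5:**
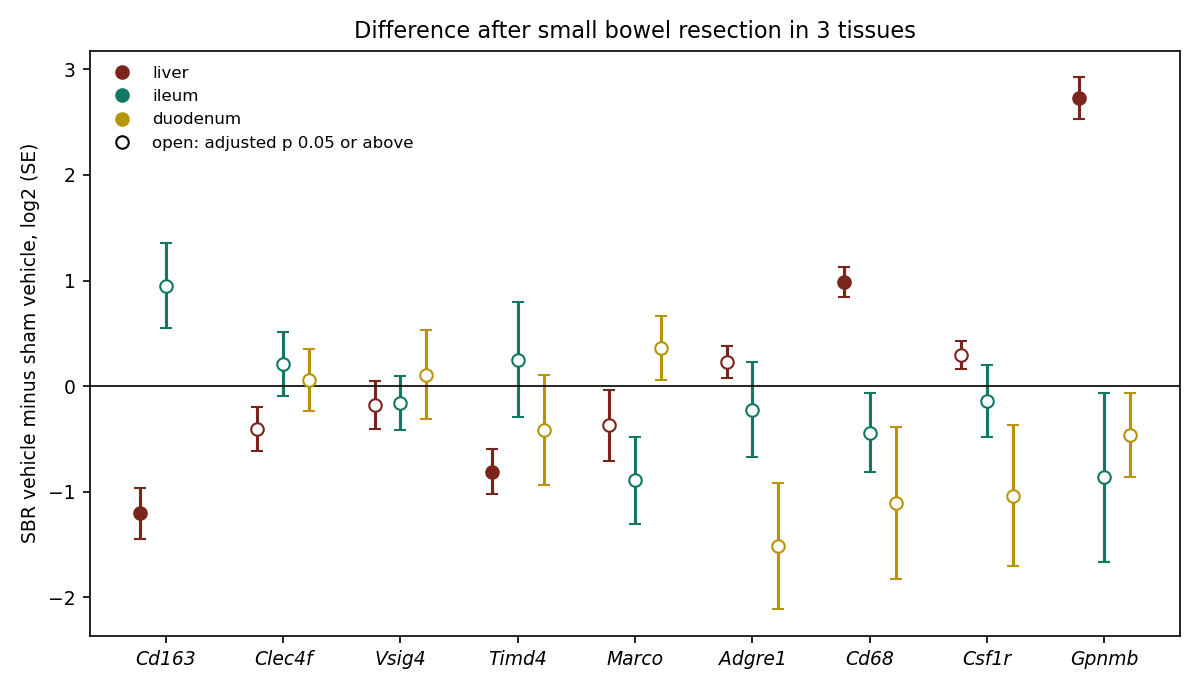
Log2 difference between SBR vehicle and sham vehicle in liver, ileum and duodenum for the 9 genes, with bars for the SE and filled points where the limma adjusted p was under 0.05 (*Cd163* was not tested in duodenum). *Gpnmb* lies at 2.72 in liver and below 0 in both regions of the gut, and *Cd163* at -1.20 in liver and 0.95 in ileum.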

How the data were processed

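Libraries were depleted of ribosomal RNA. The authors aligned reads to GRCm38 with STAR, took gene counts with featureCounts, scaled them with edgeR's TMM and as TPM, took log2 and applied ComBat, and deposited 1 table of these log2 TPM values for 15958 genes in 40 libraries. Values run from -1.69 to 18.4, and 2752 lie below 0. An offset of 1 before log2 was inferred from the values. Depth per library is unknown, and so is the precision it gives. Genes with a mean of at least 1 in a tissue were fitted with limma 3.58.1 in R 4.3.3 over the 3 groups of that tissue, with a variance trend, and called at a Benjamini-Hochberg adjusted p under 0.05 over all genes tested. Single genes were also compared with exact two-sided permutation tests (scipy 1.17.1, Python 3.11.15). Scripts were tested on simulated data. Gene positions are those of GENCODE on GRCm38, promoters those of RefSeq. No library was left out of the first fits. Same-numbered liver libraries of SBR vehicle and sham vehicle correlated at -0.12 to 0.16, so numbers were not taken as pairs. The genes and lists were chosen with earlier results of these data known. Every gene of the 10 is named in liver. In the intestine the text names those that were called there or in liver or whose groups did not overlap, and from each list at most 4 with the smallest p, with *Csf1*, *Il34*, *Tyrobp* and *Nr1h3* named whatever their p. A result of the transcription factor list is not reported here. Alternatives were other filters, pseudocounts, scalings, tests, a replicate block and leaving out each library. A spread for each tissue was added after seeing the data.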

Additional observations from a re-analysis of the deposited data

Results flagged for a closer look

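In 8 of 61 groups of 4 to 10 libraries, the highest or lowest library lay far from the others. In 4 of these all other libraries were at 1 repeated lowest value, so that any differing library would stand apart. Among the other 57 groups there were 4, where chance flags about 5% of groups. In liver, *Timd4* in SBR WUSTL0717 library 1 was 1.684, with the other 4 at 2.34 to 2.55, and *Gpnmb* in sham vehicle library 5 was 0.5576, with the others at 0.28 to 0.33. In ileum, *Gpnmb* in SBR WUSTL0717 library 2 was 5.971 and *Timd4* in the same library was 3.29. *Clec4f* in ileum SBR vehicle library 4 was 3.74, with the others at the repeated lowest value of 2.59. *Vsig4* was 2.448 in ileum SBR vehicle library 3, 2.432 in duodenum SBR vehicle library 2 and 3.735 in duodenum SBR WUSTL0717 library 1, each with the others at the repeated lowest value of 1.99.

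The change after SBR differed between tissues for 5 tests. It was lower in liver than in ileum by -2.156 for *Cd163* and higher by 3.59 for *Gpnmb*, and both passed with a spread for each tissue (limma adjusted p = 0.0102 and 0.0246). Against duodenum it was higher in liver by 3.191 for *Gpnmb* (adjusted p = 0.00041), while 1.744 for *Adgre1* and 2.091 for *Cd68* did not pass with a spread for each tissue (adjusted p = 0.0789 and 0.0803). The median of all genes was 0.21 higher in liver against ileum and 0.64 higher against duodenum.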

How the results depend on the processing

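*Cd163*, *Timd4*, *Cd68* and *Gpnmb* kept their direction and their call after SBR in every fit that left out 1 library. Genes called of the 9 in liver after SBR numbered 4, and 4 to 6 as libraries were left out, 2 with the fold change rule (fold 2 or more, unadjusted p under 0.05), and 1 with a filter at a mean of 3, which left fewer genes to test. With WUSTL0717 against SBR vehicle 2 were called, 0 to 3 as libraries were left out, 0 with the fold change rule, a pseudocount of 0.1, a two-sample test or the 2 groups alone, 1 with no filter or a filter at 3, and 4 with centring or quantile normalization. Over all genes this comparison had 652 calls (229 higher, 423 lower), 3133 after centring (1830 higher, 1303 lower), 2819 with library weights, 148 with the 2 groups alone and 93 to 1075 with 1 library left out. Against sham 2 were called with WUSTL0717, 2 to 2 as libraries were left out, 1 with the fold change rule or a filter at 3, 6 with a two-sample test or the 2 groups alone and 4 with library weights. The replicate block gave 6 called after SBR, 4 with WUSTL0717 against SBR vehicle and 4 against sham, and 0 in each intestinal comparison, but same-numbered libraries share only a number. In ileum with WUSTL0717 the fold change rule called 1, and in duodenum after SBR that rule and library weights called 1 each. Against ileum the change after SBR was called for 2, 2 to 2 with a library left out and 0 with a filter at 3, and the WUSTL0717 difference for 0 to 1. Against duodenum it was called for 3, 2 to 4 with a library left out, 1 with a filter at 3 or a spread for each tissue and 6 with quantile normalization.

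Signs turned as follows. After SBR in liver, *Adgre1* was -0.078 with centring and -0.071 with quantile normalization and *Csf1r* -0.012 with centring. With WUSTL0717 against SBR vehicle, *Cd68* was 0.057 with the replicate block and -0.115 to 0.033 as libraries were left out, and *Csf1r* -0.061 with library weights. Against sham, *Marco* was -0.22 with centring, -0.21 with quantile normalization, -0.032 with library weights and -0.094 to 0.30 as libraries were left out, and *Timd4* -0.13 to 0.11. In ileum after SBR, *Clec4f* ran from -0.077 to 0.31 and *Timd4* from -0.26 to 0.56, and with WUSTL0717 *Clec4f* from -0.28 to 0.10 and *Cd68* from -0.13 to 0.44. In duodenum with WUSTL0717, *Cd68* was 0.50 with library weights and -0.59 to 0.33 as libraries were left out. The cause of these changes was not tested. The settings given for the companion lists were chosen after seeing the data. Depth is unknown, so low values such as those of *Gpnmb* in sham liver carry an unknown counting error.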
